A study of Homo sapiens with 6 samples.

Results

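Accessible coding exons outside promoters were taken as the ATAC-seq peaks whose summit lay in protein-coding sequence and more than 2 kb from the start of every protein-coding transcript. On the autosomes, 1263 of 203683 peaks in 6 libraries met this rule, and they merged into 554 regions in 531 genes, of 54345 merged regions in all. The cells were GM12878, a lymphoblastoid line made from human B cells, and no antibody was used in any library. ATAC-seq uses the transposase Tn5 to place sequencing adapters into open chromatin, so that reads pile up where DNA is accessible. All cells were fixed with 1% formaldehyde, and the labels give the same text for all 6 libraries, with lysis in 0.05% Igepal, transposition for 30 min at 37 °C, a stop with 40 mM EDTA and reversal of the crosslinks overnight at 65 °C. The 3 protocols, with 2 replicates each, differed in how the crosslinks were reversed. For the unpurified workflow the methods also describe the 0.05% Igepal in the lysis, the EDTA stop and a spin whose supernatant was discarded, and since the labels give 1 text for all libraries, it is not clear whether the protocols differed in these steps too. Differences between protocols below therefore cannot be tied to the buffer alone. Libraries labelled SDS purified used a buffer that contained SDS. SDS-free purified libraries used the new buffer without SDS. Both kinds were purified before PCR, which the methods state for the SDS buffer and the supplementary legend for the new buffer. SDS-free unpurified libraries were amplified directly in the SDS-free mixture. It was not stated whether the replicates came from separate cultures, so every p-value below measures the spread between libraries, which may be technical. In bulk cells, a site open in fewer cells and a site less open in each cell cannot be told apart.

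A coding exon carries the codons of a protein, and most are short and flanked by introns. Sites that bind transcription factors can lie in the same bases as codons, and such exonic elements are known to act as enhancers of their own or of a neighbouring gene. Coding exons also carry positioned nucleosomes and a base composition that differs from that of introns, so accessibility inside them is usually read against the introns around them.

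The sequences below show what such a site looks like. They are 101 bases of the + strand of GRCh37, the same build as hg19, centred on the median summit of a region. The first 5 are from the strongest regions called in all 6 libraries by the lowest −log10 q among the libraries, among those with a printable window that holds no untranslated sequence. Capitals mark matches to the motifs spelled out further down, and a window without capitals holds none of them. The windows lie at chr2:179395515-179395615 in TTN, chr4:114468766-114468866 in CAMK2D, chr1:248570245-248570345 in OR2T1, chr10:61834104-61834204 in ANK3 and chr19:23710716-23710816 in ZNF675.
TTN: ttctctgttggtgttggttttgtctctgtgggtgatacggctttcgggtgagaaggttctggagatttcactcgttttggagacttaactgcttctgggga
CAMK2D: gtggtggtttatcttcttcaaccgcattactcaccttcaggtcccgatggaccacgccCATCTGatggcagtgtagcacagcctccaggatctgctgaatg
OR2T1: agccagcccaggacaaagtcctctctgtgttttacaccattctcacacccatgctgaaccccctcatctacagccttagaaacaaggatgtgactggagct
ANK3: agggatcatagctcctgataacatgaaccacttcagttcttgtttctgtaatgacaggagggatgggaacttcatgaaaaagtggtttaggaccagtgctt
ZNF675: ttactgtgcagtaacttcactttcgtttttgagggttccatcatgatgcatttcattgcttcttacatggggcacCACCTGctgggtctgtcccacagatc

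All 101 bases were coding in the TTN, OR2T1 and ANK3 windows, 97 were coding in ZNF675 and 67 in CAMK2D. The capitals in CAMK2D and ZNF675 are matches to the E-box. The next 4 windows, each called in all 6 libraries, show matches to motifs of lymphoid or architectural factors and were chosen after their values were seen. They lie at chr12:14774895-14774995 in GUCY2C, chr16:31276727-31276827 in ITGAM, chr2:131129791-131129891 in PTPN18 and chr7:12428846-12428946 in VWDE.
GUCY2C: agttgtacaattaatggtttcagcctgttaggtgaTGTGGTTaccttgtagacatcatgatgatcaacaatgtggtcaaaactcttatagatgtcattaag
ITGAM: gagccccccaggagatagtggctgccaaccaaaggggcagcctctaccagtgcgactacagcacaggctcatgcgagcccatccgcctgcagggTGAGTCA
PTPN18: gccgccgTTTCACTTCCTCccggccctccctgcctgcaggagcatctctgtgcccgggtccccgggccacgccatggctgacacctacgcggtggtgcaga
VWDE: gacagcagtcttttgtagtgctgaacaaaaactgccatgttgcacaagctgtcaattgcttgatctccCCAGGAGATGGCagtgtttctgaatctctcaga

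The match in GUCY2C is to RUNX, in ITGAM to AP-1 and in VWDE to CTCF, while the capitals in PTPN18 hold overlapping matches to PU.1 and to the composite of ETS and IRF. At these regions the reads at the summit ranged over the 6 libraries from 21 to 34 in GUCY2C, from 32 to 40 in ITGAM, from 36 to 55 in PTPN18 and from 15 to 21 in VWDE. The VWDE window was coding throughout, and the other windows held 57, 93 and 62 coding bases. The matches in GUCY2C, ITGAM and PTPN18 lay outside those coding bases, and only the match in VWDE was in coding sequence. A match is a run of letters in the reference genome, and binding of a factor was not measured.

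The libraries held 30136 to 38023 peaks each on all chromosomes. The lists give no read totals, but the fold enrichment and p-value of a peak fix the reads at its summit, which was solved exactly for 100% of the peaks. The lowest local background of a library, which scales with its reads, ran from 1.51 to 1.86 reads. As a check of the label, the promoters of MS4A1, EBF1 and CD74 had a peak in 6 of 6 libraries. CD79A had one in 4, CD22 in 3, and CD79B and PAX5 in 1 library each. Among markers of other cells, CD14 had a promoter peak in 4 libraries and the other 9 on autosomes had none.

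Coding exons outside promoters held a small and stable share of the peaks in every library. The SDS purified libraries had 224 and 187 such peaks, the SDS-free purified libraries 245 and 181, and the SDS-free unpurified libraries 232 and 194. These were 0.618% and 0.557% of the autosomal peaks with SDS, 0.669% and 0.624% without SDS and with purification, and 0.664% and 0.584% without purification. The exact binomial 95% intervals, which cover counting error only, reached from 0.480% to 0.758% over the libraries and all overlapped. Replicate 1 had more of these peaks than replicate 2 in each protocol. The share was 0.587% ± 0.0428 (SD, n = 2) with SDS, 0.646% ± 0.0317 (SD, n = 2) after purification without SDS and 0.624% ± 0.0564 (SD, n = 2) without purification.

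No difference in share between protocols passed the test. SDS-free purified minus SDS purified was 0.0589 percentage points (exact permutation test, two-sided p = 0.333, adjusted p = 0.8). The other pairs gave 0.0364 for SDS-free unpurified minus SDS purified and -0.0225 for SDS-free unpurified minus SDS-free purified, each with an exact permutation p of 0.667 and an adjusted p of 0.8. With 2 libraries against 2, p cannot go below 0.33, so this design could not pass any threshold in use.

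**Figure D1:**
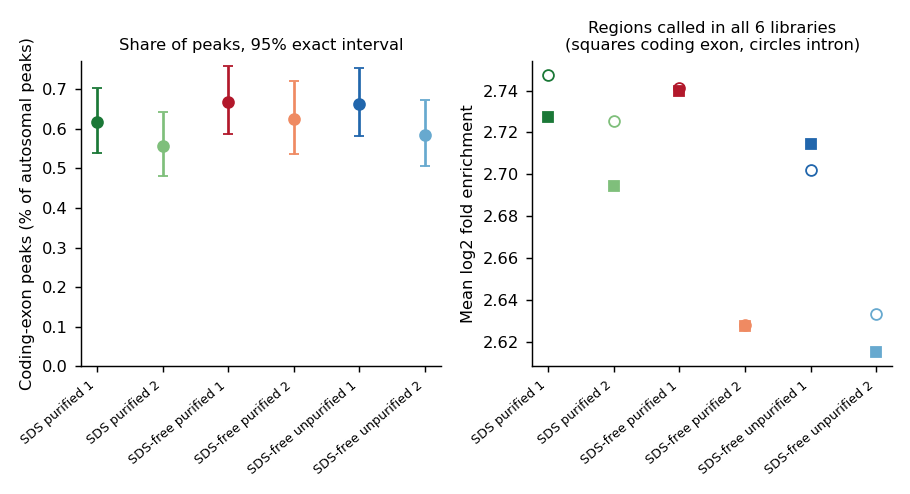
Left, the share of autosomal peaks with a summit in a coding exon outside promoters (%), by library, with exact binomial 95% intervals. Right, the mean log2 fold enrichment of regions called in all 6 libraries, with squares for coding exons and open circles for introns and a y axis that does not start at 0. The shares lie between 0.557% and 0.669%, and the squares and circles move together from library to library.

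Peaks in coding exons and in introns showed no difference in strength that passed a test paired by library. Their median reads at the summit were 20 and 18 in the SDS purified libraries, 20 and 18 in the SDS-free purified libraries and 19 and 21 in the SDS-free unpurified libraries. In introns outside promoters, taken by the same distance rule, the medians were 20, 18, 19, 18, 20 and 20 in the same order. The differences within libraries had both signs, with a mean of 0.167 reads over 6 libraries (exact sign-flip test, p = 1). Between libraries the coding-exon medians varied by 1.21 reads (SD, n = 6), which is not the spread of the paired differences.

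Median peak width in coding exons was 357 ± 31.7 bp (SD, n = 6) against 356 ± 12.2 bp (SD, n = 6) in introns, a mean difference of 0.583 bp (exact sign-flip test, p = 0.938, adjusted p = 1). The width in coding exons was lowest in SDS purified replicate 2, at 301 bp, and highest in SDS-free purified replicate 1, at 388 bp. Of the coding-exon peaks, 72.2% ± 8.73 (SD, n = 6) overlapped a peak of the other replicate, and of the intron peaks 71.7% ± 7.73 (SD, n = 6). The mean difference was 0.418 percentage points (exact sign-flip test, p = 0.75, adjusted p = 1). The 2 libraries of a protocol share this measure, so the 6 values are not independent, which this test ignores. Neither difference passed its paired test, which does not show that the classes are alike.

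Per base, summits in coding exons lay between those in introns as a whole and those in the introns next to them. Coding sequence more than 2 kb from a start covered 25.4 Mb, which was 74.0% of the 34.2 Mb of autosomal coding sequence, and introns at the same distance covered 1058 Mb. Coding exons held 8.84 and 7.38 summits per Mb in the SDS purified libraries, 9.66 and 7.14 in the SDS-free purified libraries and 9.15 and 7.65 in the SDS-free unpurified libraries. All introns held 10.3, 9.39, 10.2, 7.46, 9.58 and 8.96 in the same order. Each library therefore had fewer summits per Mb in coding exons than in introns.

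The ratio of the densities, coding exon over intron, was 0.859 and 0.786 in the SDS purified libraries, 0.944 and 0.957 in the SDS-free purified libraries and 0.956 and 0.854 in the SDS-free unpurified libraries. On the log2 scale the mean was -0.17 ± 0.12 (SD, n = 6) and below 0 in 6 of 6 libraries. The exact sign-flip p was 0.03125, the smallest that 6 libraries can give, and the p adjusted over 4 tests was 0.125, so the difference did not pass after correction.

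Introns within 500 bp of a coding exon gave the opposite sign. This comparison was added after the data were seen. Distance was measured from coding sequence outside promoters only, so introns beside exons near a start can fall in the farther classes. These flanks held 7.71, 7.36, 7.99, 5.45, 7.44 and 6.61 summits per Mb, and the ratio of coding exons to them was 1.15, 1.00, 1.21, 1.31, 1.23 and 1.16 in the same order of libraries. The mean log2 ratio was 0.23 ± 0.13 (SD, n = 6) and above 0 in 6 of 6 libraries, in SDS purified replicate 2 by only 0.0031. Its exact sign-flip p was also 0.03125 and its adjusted p 0.125. Density in introns, as a mean over 6 libraries, was 7.19 per Mb within 100 bp of a coding exon, 6.81 at 250 to 500 bp, 8.22 at 1 to 2 kb and 10.3 at 5 to 20 kb. The coding-exon mean of 8.30 ± 1.05 (SD, n = 6) was near that of introns 1 to 2 kb away.

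**Figure D2:**
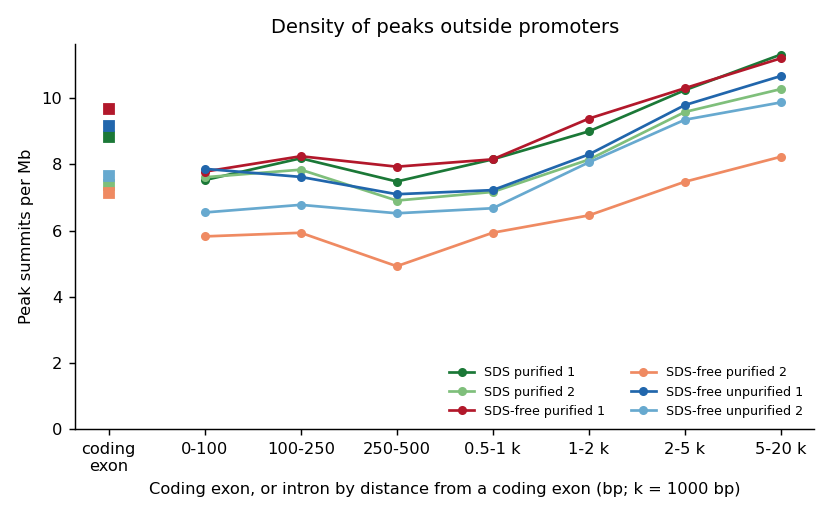
Peak summits per Mb (y axis) in coding exons outside promoters (squares) and in introns by their distance from the nearest coding sequence outside promoters (circles joined by lines), 1 colour per library. Density rises with distance in all 6 libraries from 500 bp outward, and each square lies below the same library's value at 5 to 20 kb.

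Density also varied with the length of the exon. Exons here are stretches of coding sequence merged over transcripts and cut at the 2 kb limit. An exon cut there counts by the length that is left. Coding exons of up to 100 bp held 6.91 ± 1.10 summits per Mb (SD, n = 6) and those of 101 to 150 bp held 7.33 ± 1.10 (SD, n = 6). Exons of 301 to 500 bp held 14.0 ± 2.22 (SD, n = 6), with a lowest library of 12.3 that lay above the highest library of 8.56 for exons of 101 to 150 bp. Exons of 201 to 300 bp held 10.5 ± 1.68 (SD, n = 6). Longer exons held 8.99 ± 1.08 (SD, n = 6) at 501 to 1000 bp, 6.88 ± 0.737 (SD, n = 6) at 1001 to 3000 bp and 9.34 ± 1.74 (SD, n = 6) over 3000 bp, so density did not move one way with length. Only 39 of 4127 exons of 301 to 500 bp, or 0.945%, and 17 of 207 exons over 3000 bp, or 8.21%, held a summit in any library. The densities of both classes therefore rest on few exons, and no test was made between length classes.

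Most regions were wider than the exon they lay in. The median region was 378.5 bp wide, with a range of 200 to 1537 bp, and the median exon was 167.5 bp long. Over all 156321 stretches of coding sequence outside promoters the median length was 122 bp. These stretches were merged over transcripts and cut at the 2 kb limit, and the exons of regions were not, so the 2 lengths are unlike measures. A longer exon also offers more bases for a summit. Of the regions, 444 (80.1%) were wider than their exon, and the median summit lay 39 bp from the nearer exon edge. No region was narrower than 200 bp, so any region in a shorter exon counts as wider, and this share is partly set by the lowest width. In the canonical transcript, which 509 regions could be placed in, 387 lay in an internal coding exon, 96 in the last, 18 in the first of several and 8 in the only one. Of these regions, 77 lay in the first 20% of the coding sequence and 121 in the last 20%. The 2 kb rule removes exons near starts, which lowers the counts of first exons and of the first 20%, so nothing is read from these positions.

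Many regions were near a start of another kind of transcript. The median distance to a protein-coding start was 15815.5 bp, and to any annotated start 4159 bp. An annotated start that was not protein-coding lay within 500 bp of 110 regions (19.9%) and within 2 kb of 192 (34.7%). Of those 192 starts, 76 were of retained-intron transcripts, 52 of transcripts of coding genes with no defined coding sequence, 29 of lncRNAs and 24 of transcripts subject to nonsense-mediated decay. Coding stretches without regard to peaks had such a start within 500 bp of their midpoint in 16.3% and within 2 kb in 33.3% of cases, and intron regions in 3.89% and 10.8%. The share near another start was thus close to that of coding exons in general. In 147 regions (26.5%) the summit also lay in sequence that another transcript uses as untranslated.

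All 6 libraries called about the same share of these regions as of all autosomal regions, and reads at the summit went with the number of libraries. Calling took an overlap of 1 bp with any peak of the library. All 6 libraries called 194 of the 554 regions (35.0%), where the background was 35.6% of all autosomal regions and 27% of intron regions built the same way. A single library called 121 (21.8%), with a background of 27.3% of all regions and 31.1% of intron regions. Between these, 66, 58, 64 and 51 regions were called in 2, 3, 4 and 5 libraries. Regions called in all 6 had a median of 25.5 reads at the summit, and those called in 1 had 13. A weak site passes the peak threshold in fewer libraries, so this order is partly set by the calling. The rate for all 6 libraries was thus near that of all regions and above that of intron regions, and no test was made of this. A coding summit in any 1 library made a region a member, so a site called in more libraries had more chances to enter. Nothing about coding exons is therefore read from the difference to intron regions.

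**Figure D3:**
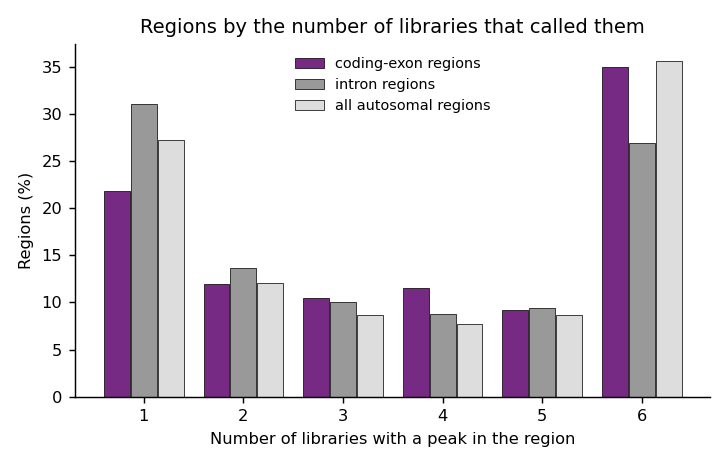
Share of regions (%) by the number of libraries with a peak in them, for the 554 coding-exon regions, intron regions outside promoters and all autosomal regions. Coding-exon regions stand at 35.0% for 6 libraries and 21.8% for 1, and intron regions at 27% and 31.1%. Entry from a coding summit in any 1 library favours regions called in more libraries.

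The summit itself was often not in the exon in every library. In only 44 of the 194 regions called in all 6 libraries did all 6 summits lie in eligible coding sequence, and in 48 only 1 did. Of the 1164 calls in these regions, 644 (55.3%) had a coding summit, 388 (33.3%) had a summit in an intron and 132 (11.3%) elsewhere, and 0 lay in a promoter. The exons of the 44 regions had a median length of 709 bp, and those of the other 150 had 143 bp. The rule chose regions from any library with a coding summit, so these shares describe the position of summits and are not evidence on the exons.

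The strongest regions lay in genes of very different tissues. TTN, which encodes the giant spring protein of the muscle sarcomere, had 81 and 67 reads at the summit in the SDS purified libraries, 87 and 78 in the SDS-free purified libraries and 81 and 76 in the SDS-free unpurified libraries. The ranges of the 3 protocols overlapped. The region, at chr2:179395145-179396033 in coding exon 357 of 362, is inside a coding exon of 5609 bp. Its summit lay 23 bp from the annotated start of TTN-AS1, a lncRNA that runs antisense to TTN. The promoter of TTN had a peak in 0 libraries. Fold enrichment over the local background was 10.4 to 12.9.

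MGARP, a mitochondrial protein gene, had 63, 60, 71, 57, 78 and 63 reads in the same order of libraries, in its last coding exon at chr4:140187632-140188498. MARCHF11, a membrane-bound ubiquitin ligase gene, had 67, 51, 57, 54, 58 and 57 reads at chr5:16067454-16068068, also in its last coding exon. Both had their coding summit in all 6 libraries and no promoter peak in any, and neither had another annotated start within 10 kb.

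OR2T1, an olfactory receptor gene whose protein is encoded in a single exon, had 51, 56, 71, 49, 51 and 65 reads at chr1:248569899-248570892. ZFAT, a zinc finger transcription factor gene, had 68, 73, 85, 74, 76 and 71 reads at chr8:135613725-135614543. Its fold enrichment of 5.73 to 7.24 was lower than that of TTN, since its local background was higher. ANK3, which encodes ankyrin-G of neuronal membranes, had 62, 56, 63, 47, 58 and 62 reads in an exon of 7812 bp at chr10:61833598-61834575. All 6 summits were coding in each of these genes.

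In shorter exons the summit moved between exon and intron. CAMK2D, a calcium-dependent kinase gene, had 58, 59, 65, 44, 53 and 51 reads at chr4:114468503-114469140, with 4 of 6 summits in its exon of 73 bp. NCAPG2, a condensin II subunit gene, had 62, 53, 64, 44, 57 and 48 reads at chr7:158448593-158449343, with 5 of 6 summits in an exon of 174 bp. TENT4A, which encodes a poly(A) polymerase, had 66, 42, 75, 57, 62 and 62 reads at chr5:6737080-6737959, and 2 summits lay in its exon of 124 bp. In each of these 3 genes the promoter had a peak in all 6 libraries, unlike at TTN, MGARP, MARCHF11 and OR2T1.

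ITGAM, which encodes the myeloid integrin chain CD11b, had 35, 39, 40, 35, 32 and 36 reads in coding exon 3 of 30, at chr16:31276562-31277114. The promoter of ITGAM had no peak in any library. The match to AP-1 in ITGAM lies just beyond the end of its exon of 104 bp.

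Regions in ZNF675, TTC5, ATP7B and SLC4A10 were also among the 15 strongest, with 34 to 59 reads over the libraries. SDS-free purified replicate 2 gave the lowest value at ZNF675, with 38 reads, and at SLC4A10, with 36. Over the 15 regions the reads ranged from 32 to 87 and the fold enrichment from 5.73 to 14. The genes' own promoters had a peak in all 6 libraries for 8 of them and in no library for 7, and the median exon was 246 bp. ZNF675 and OR2T1 belong to families with similar copies, so the placement of reads between copies is uncertain, although only pairs of high mapping quality were kept. These regions were ranked by their −log10 q, so their strength is a description.

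**Figure D4:**
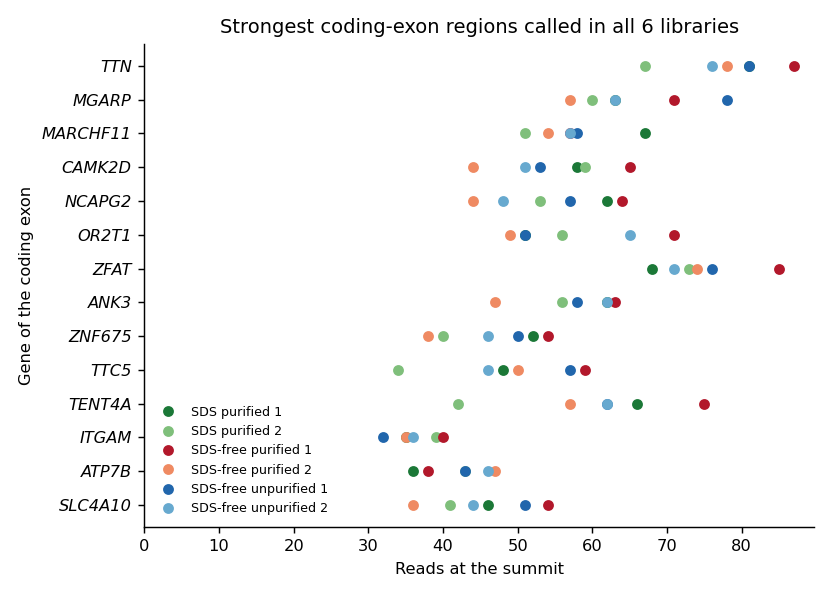
Reads at the summit (x axis) in each of the 6 libraries (colours) for 14 of the 15 coding-exon regions with the highest lowest-library −log10 q, named by gene. Values run from 32 to 87 reads, and the colours of the 3 protocols are mixed within each row.

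A promoter peak in the same gene was about as frequent as among all genes. Of 528 genes with a region and a promoter that could be scored, 265 (50.2%) had a peak within 1 kb of a coding start in all 6 libraries and 176 (33.3%) in none. Of all 16519 genes with coding sequence outside promoters, 49.4% had one in all 6 and 34.8% in none. Among the 194 regions called in all 6 libraries, 100 (51.5%) had an own promoter called in all 6 and 70 (36.1%) in none. Genes with a region had a median of 1910 bp of coding sequence outside promoters, against 1092 bp over all genes, and the part of this length in the counts was not tested.

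Gene lists were read as the share of genes with at least 1 region, where the background was 3.16% of 16806 genes. None of 33 genes of the B-cell lineage and receptor signalling had one, which allows a share of up to 9.09%, although 11 of them had a promoter peak in all 6 libraries. Of 37 lymphoid transcription factors 1 had a region, NFKB1, a subunit of NF-kB. It had 17 reads in SDS-free purified replicate 1 and no peak in the other libraries, at chr4:103501605-103501885, and its summit was 1 bp from the start of another NFKB1 transcript. Of 41 chromatin and transcription regulators 4 had a region (9.76%), CHD7, PRDM2, TET2 and TRRAP. CHD7, a chromatin remodeller, had 24, 33, 33, 24, 40 and 41 reads in the order SDS purified, SDS-free purified and SDS-free unpurified.

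Of 29 cytoskeleton and adhesion genes 4 had a region (13.8%), among them DIAPH1, DST and PLEC. DST, which encodes a large linker of the cytoskeleton, had 37, 49, 32, 35, 52 and 41 reads at chr6:56458439-56459119. Of 42 neuronal, muscle and sensory genes 4 had one (9.52%), among them GRIN2D, NEB and TTN, while only 2 of these 42 had a promoter peak in all 6 libraries. Of 36 collagens, laminins and matrix genes only FN1, the fibronectin gene, had one, with 23 reads in SDS-free purified replicate 1 and 13 in SDS-free unpurified replicate 1. The FN1 summit lay 16 bp from the start of another FN1 transcript. Of 486 genes named ZNF, 9 had a region (1.85%).

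The lists differ in coding length, so the regions were also counted per Mb of coding sequence outside promoters. All genes had 21.9 regions per Mb. The cytoskeleton list had 26.4, the chromatin list 20.2, the lymphoid factors 18.2, the neuronal and muscle list 13.0, the ZNF genes 10.4, the matrix list 5.23 and the B-cell list 0. By length, the chromatin list was thus near the background, and the neuronal and muscle list was below it although its share of genes was above. The lists hold 1 to 9 regions where they hold any, and no list was tested.

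CRYBG1 and PKHD1L1 held 3 regions each, the most of any gene. In CRYBG1, a member of the crystallin-related family, 2 regions lay in the same exon of 2323 bp. The one at chr6:106967403-106968242 had 38, 38, 36, 46, 37 and 36 reads, and the one at chr6:106968641-106969248 had 33, 27, 30, 35, 45 and 41. The third, at chr6:106960049-106960794, was called in 4 libraries with 18 to 26 reads. In PKHD1L1 the regions lay in coding exons 20, 41 and 75 of 78, and the last had 31, 30, 37, 24, 35 and 39 reads. The summit of this last region lay 4 bp from the start of another PKHD1L1 transcript. Neither gene had a promoter peak in any library.

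Few regions separated the protocols, and the numbers were near the background. A region was counted as specific when both libraries of one protocol and neither of the other called it. Without SDS and with purification there were 11 of 511 regions (2.15%) over SDS, where the background was 1.83%, and 11 (2.15%) the other way, where it was 3.2%. SDS-free unpurified had 14 of 512 (2.73%) over SDS, with a background of 2.42%, and SDS had 15 (2.93%) over it, with 2.8%. SDS-free unpurified had 12 of 506 (2.37%) over SDS-free purified, with 2.7%, and the reverse was 15 (2.96%), with 1.74%.

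Where called, the strongest specific regions ran from 12 reads at FAM193A to 39 at CREB5, both in SDS-free unpurified replicate 2. For comparison, the median of all coding-exon peaks was 18 to 21 reads by library. NTNG1, which encodes the neuronal adhesion protein netrin G1, was called with 20 and 18 reads after purification without SDS and with 16 and 17 without purification, but in neither SDS library. CREB5, a transcription factor gene, had 26 and 23 reads after purification without SDS and 25 and 39 without purification, and no peak in the SDS libraries. Its summit lay 35 bp from the start of another CREB5 transcript. These 2 regions were thus called in all 4 SDS-free libraries and in 0 of 2 SDS libraries.

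In the other direction, XYLT1, which starts the sugar chains of proteoglycans, had 18 and 21 reads with SDS and 20 in SDS-free purified replicate 1, and was not called without purification. The XYLT1 summit lay 13 bp from the start of another XYLT1 transcript. FAM193A had 20 and 21 reads with SDS and 20 and 12 without purification, and was not called in the SDS-free purified libraries. SDE2, a genome maintenance gene, had 18 and 18 reads without purification and 19 and 20 with SDS, with no peak in the SDS-free purified libraries. MIB1, a ubiquitin ligase gene of Notch signalling, had 23 and 15 reads after purification without SDS, 14 in SDS purified replicate 1 and no peak without purification. The libraries with a coding summit numbered 1 at each of FAM193A, SDE2 and MIB1, 2 at XYLT1 and 4 at each of NTNG1 and CREB5. The other calls at these regions had their summit outside eligible coding sequence. A region not called may still hold reads below the peak threshold, which the lists do not give.

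Among the 194 regions called in all 6 libraries, mean log2 fold enrichment was 2.71 ± 0.0233 (SD, n = 2) with SDS, 2.68 ± 0.0794 (SD, n = 2) after purification without SDS and 2.66 ± 0.0706 (SD, n = 2) without purification. The differences were -0.027 for SDS-free purified minus SDS purified (exact permutation p = 1), -0.046 for SDS-free unpurified minus SDS purified (exact permutation p = 0.667, adjusted p = 0.8) and -0.019 for SDS-free unpurified minus SDS-free purified (exact permutation p = 0.667, adjusted p = 0.8). Intron regions called in all 6 had 2.74, 2.68 and 2.67 in the same order. After the intron value of each library was subtracted, the first 2 differences became 0.025 and 0.023 (exact permutation p = 0.333 for each), so their direction depends on that step. Over the same 194 regions, the correlation of log2 fold enrichment was 0.693 on average between libraries of 1 protocol (3 pairs) and 0.666 between libraries of different protocols (12 pairs). This is a description across regions, which share the genome's local background.

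The sequences of these regions held more matches to several motifs than coding exons in general. Motifs were searched on both strands in 201 bp around the median summit, as CTCF (CCA, AG and GGC with 2 bases between neighbours), AP-1 (TGANTCA), RUNX (TGTGGTT), NF-kB (GGG and TTCC with 3 bases between them), PU.1 (GAGGAAGT), ETS (ACNGGAAGT), a composite of ETS and IRF (GGAA and GAAA with 2 bases between them), OCT (ATGCAAAT), EBF (TCCC and GGGA with 2 bases between them) and the E-box (CANCTG), where N is any base. The letters for PU.1 and ETS share GGAAGT, and the composite can overlap either. AP-1 matched in 13.0% of the 554 regions (exact binomial 95% interval 10.3% to 16.1%), in 18.2% of intron regions and in 5.17% of windows at the midpoints of all coding stretches outside promoters. RUNX matched in 11.7% (9.17% to 14.7%), against 14.3% and 3.28%.

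NF-kB matched in 7.58% (5.52% to 10.1%) of the regions, in 7.63% of intron regions and in 2.39% of coding midpoints. CTCF matched in 5.78% (3.98% to 8.06%), against 4.64% and 1.12%, and PU.1 in 5.42% (3.68% to 7.64%), against 3.55% and 1.31%. The composite of ETS and IRF matched in 5.23% (3.53% to 7.43%), against 4.47% and 2.16%, and ETS in 1.99% (0.995% to 3.52%), against 1.49% and 0.686%. For these 7 motifs the interval of the regions lay wholly above the share of coding midpoints. OCT matched in 1.81% (0.869% to 3.29%), against 3.20% of intron regions and 0.860% of coding midpoints, and EBF in 0.903% (0.294% to 2.09%), against 0.839% and 0.503%. These intervals hardly separate OCT, and do not separate EBF, from coding midpoints. The E-box, at 49.8%, was about as frequent as at coding midpoints, at 50.3%.

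Against intron regions, the interval of AP-1 in coding-exon regions ended below the 18.2% of introns. The interval of the E-box, 45.6% to 54.1%, began above the 44.4% of introns. PU.1 was at 5.42% against 3.55%. Its interval, 3.68% to 7.64%, began above that share but overlapped the interval of introns, 3.29% to 3.83%. For AP-1 and the E-box the intervals of coding-exon and intron regions did not overlap. Median GC content was 48.8% in coding-exon regions, 43.8% in intron regions and 46.8% at coding midpoints, and the median ratio of observed to expected CpG was 0.36, 0.19 and 0.30. The part of base composition in the motif shares was not tested. Windows centred on a summit and windows centred on an exon midpoint also differ in how much intron they hold, and this part was not tested either.

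**Figure D5:**
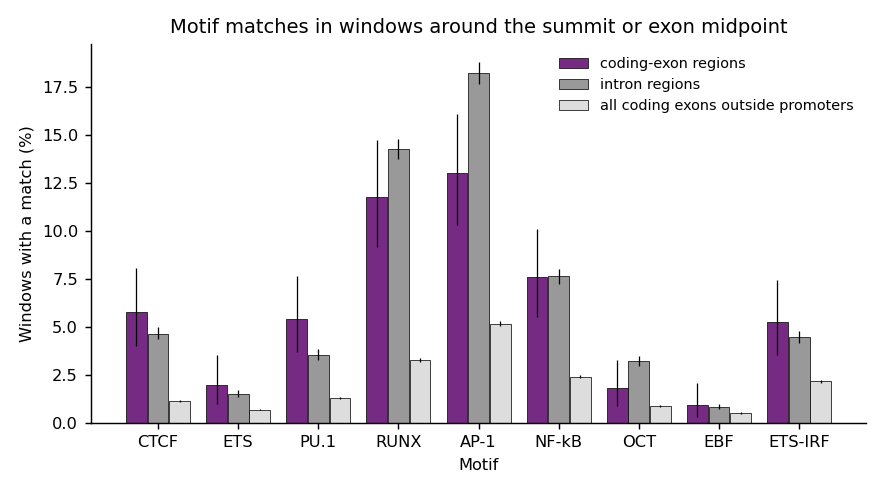
Share of 201 bp windows (%) with a match to 9 motifs around the summits of coding-exon regions (purple), around the summits of intron regions (dark grey) and at the midpoints of all coding stretches outside promoters (light grey), with exact binomial 95% intervals. AP-1 stands at 13.0%, 18.2% and 5.17%, and CTCF at 5.78%, 4.64% and 1.12%.

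The 2 kb limit cut through a continuous range of distances. Of 4478 peaks with a coding summit, 3215 lay within the limit. The member nearest to it, in SELENOS, a gene of the endoplasmic reticulum, had its summit 2011 bp from a start and 27 reads in SDS purified replicate 1. The nearest peak left out, in AGFG1, lay 1992 bp from a start and had 13 reads in SDS purified replicate 2.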

How the data were processed

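ATAC-seq peak lists of 6 libraries were used, grouped by protocol and replicate from the sample labels. Reads were trimmed by the authors and aligned to hg19 (Bowtie2 2.1.0). Proper pairs above a quality limit were retained, duplicates (Picard 1.79) and mitochondrial reads were discarded, and MACS2 was run for narrow peaks with a q threshold of 0.01. For MACS2 the version is not given in the sources used here. In the methods there is a merge of samples of the same condition, but there is 1 list per library. A filter on blacklisted regions and on nuclear copies of mitochondrial sequence is also described, and whether the deposited lists went through it is not clear. The deposited score is −log10 q times 10, the deposited fold enrichment is a ratio of the summit to the local background, and the deposited −log10 p and −log10 q are those of the authors. No replicates were pooled.

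Reads at the summit were solved from the deposited fold enrichment and the Poisson p, within 0.001 in −log10 p. They are counted after duplicate removal, and their number sets the precision of a peak. Coding sequence, introns and 75494 protein-coding starts on 22 autosomes came from GENCODE version 44 on GRCh37. Summits more than 2 kb from each such start were kept, and overlapping member peaks were merged over libraries. Intron regions were built the same way. A library called a region from an overlap of 1 bp, and its strongest peak was used. A promoter peak of a gene was a peak overlapping the 1 kb on each side of a start. The members and the gene lists were chosen with earlier results of these data known.

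Named were the 15 regions called in all libraries with the highest lowest −log10 q, the most often called member of each gene list, the strongest specific region of each protocol pair and direction, the peaks nearest to the 2 kb limit and genes with 3 regions. Protocols were compared by two-sided exact permutation tests of 2 libraries against 2, and coding exons with introns by an exact sign-flip test over 6 libraries, adjusted by the Benjamini-Hochberg method over 6 and 4 tests. Alternatives were other distances, all transcript starts, a 25 bp margin, summits outside untranslated sequence, a −log10 q of at least 5, 30136 peaks per library, other merging, each replicate left out and a replicate block. Introns within 500 bp and calls by coding summit alone were added after the data were seen. Scripts were tested on simulated data. The tools were pysam 0.24.0, bedtools 2.31.1, samtools 1.23.1, pandas 2.3.3, SciPy 1.17.1, NumPy 2.4.6 and Python 3.11.15. Peaks on sex chromosomes were not analysed here, and a few genes that the rules name are not reported here.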

Additional observations from a re-analysis of the deposited data

Results flagged for a closer look

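In a pair of measures both libraries of 1 protocol lay on one side of 0 and both libraries of another on the other side, and the difference was not tested. The median width of coding-exon peaks minus that of intron peaks was 3 and 26.5 bp in SDS-free unpurified replicates 1 and 2, and -2 and -35 bp in SDS purified replicates 1 and 2. The share of peaks that overlapped a peak of the other replicate, coding exon minus intron, was 2.62 and 2.90 percentage points in SDS-free purified replicates 1 and 2, and -3.47 and -1.69 percentage points in SDS purified replicates 1 and 2. For this share the 2 libraries of a protocol are scored against each other, so their common sign is not 2 separate observations.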

How the results depend on the processing

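Of the values recomputed under the alternatives, 140 changed neither sign nor their side of a threshold or were counts within 1.5 times of the reported one (3 differences in reads at the summit became 0), 24 changed sign and 8 counts moved by more than 1.5 times. No test passed its threshold after correction under any alternative, and for the changes of sign the cause was not tested. For many settings this was fixed in advance. The permutation tests between protocols cannot go below a p of 0.33, or 0.5 with the block. The sign-flip tests with 1 library left out cannot go below 0.0625. The difference in peak width (coding exon minus intron) was -4.08 bp with 30136 peaks per library, -2.83 bp with a limit of 5 kb, -0.17 bp with 1 kb and -4.83 bp with summits outside untranslated sequence. The difference in overlap with the replicate was -0.066 percentage points at 5 kb, -0.041 at 1 kb, -0.997 with all transcript starts and -0.54 with a 25 bp margin. The difference in reads at the summit was -0.17 with all transcript starts and -0.25 with summits outside untranslated sequence, and the difference in fold enrichment used in its place was -0.0017. Subtracting intron regions turned the differences in log2 fold enrichment from SDS to 0.025 (SDS-free purified) and 0.023 (SDS-free unpurified). Against introns within 500 bp the log2 density ratio was 0.23. With all transcript starts kept away, there were 362 regions, 118 called in all 6 libraries, and 14 (SDS-free purified or SDS purified) and 16 (SDS-free unpurified or SDS-free purified) specific to either protocol. With the margin the specific regions numbered 10 (SDS-free purified or SDS purified), 13 (SDS-free unpurified or SDS purified) and 13 (SDS-free unpurified or SDS-free purified). Counting only coding summits left 44 regions called in all 6. Fewer regions or calls enter under these settings. With the margin there were 412 regions against 554. The specific regions fell more steeply, from 22 to 10, from 29 to 13 and from 27 to 13 in the same order of pairs. The reason for this was not tested.

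Each library was left out in turn. The share of peaks then ranged from 0.0287 to 0.0892 percentage points for SDS-free purified minus SDS purified, from -0.0035 (without SDS-free unpurified replicate 1) to 0.0763 for SDS-free unpurified minus SDS purified, and from -0.0624 to 0.0174 (without SDS-free unpurified replicate 2) for SDS-free unpurified minus SDS-free purified. In the same order, the log2 fold enrichment ranged from -0.0833 to 0.029 (without SDS-free purified replicate 2), from -0.0962 to 0.0037 (without SDS-free unpurified replicate 2) and from -0.0753 to 0.037 (without SDS-free purified replicate 1). It was 0.031 in the last pair without SDS-free unpurified replicate 2. The log2 density ratio ranged from -0.19 to -0.13, the reads at the summit from 0 to 0.4, the width from -4.6 (without SDS-free unpurified replicate 2) to 7.7 bp, with -3.3 without SDS-free purified replicate 1, and the overlap with the replicate from -0.75 (without either SDS-free purified library) to 1.91 percentage points.

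With the replicate number as a block, the differences in share stayed at 0.0589, 0.0364 and -0.0225 percentage points (exact permutation p = 0.5 for each) and those in log2 fold enrichment at -0.027 (exact permutation p = 1), -0.046 and -0.019 (exact permutation p = 0.5 for both), where the smallest p of this design is 0.5. Deviations of same-numbered libraries from their protocol means correlated at 0.14, 0.066 and 0.0031 over the 194 regions, so the numbers were not taken to pair the libraries. Depth limits what a missing peak means, since regions called in 1 library had a median of 13 reads.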
